A study of Mus musculus with 66 samples.

Results

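Newly made RNA of 3T9-MycER cells was compared between 4 h and 1 h of treatment with 4-hydroxytamoxifen (OHT), which asks how transcription moved on after the first hour of MycER activity. The members are 6 of the 66 libraries of the series, taken by kind of RNA and time as the sample titles give them: 3 libraries of labelled RNA at 4 h and 3 at 1 h. The cells are mouse embryonic fibroblasts with both c-myc alleles floxed, infected in culture with a retroviral MycER construct. All groups carry these alleles and the construct. Cells of both times had received 400 nM OHT and were given 300 µM 4-thiouridine (4sU), a nucleoside that enters RNA as it is made, for 10 min before harvest. RNA that held 4sU was then isolated on beads. Further groups set beside them had 3 libraries each: labelled RNA after 8 h, 2 h and 1.5 h of OHT, labelled RNA at 0 min, where no OHT had been added, and total RNA at 4 h and 1 h. No library of any time beyond 0 min came from cells without OHT, so time in OHT and time in culture cannot be told apart. Nothing in the labels says whether replicates came from different cultures, so p-values cover only the scatter among libraries of the same time. In the main fits this scatter was pooled over all times, from all 33 labelled (or all 33 total) libraries, and it may be technical.

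MycER is the transcription factor Myc joined to the hormone-binding part of the oestrogen receptor, and OHT makes it active. Myc pairs with Max, binds the E-box CACGTG and is known for raising genes of ribosome production, metabolism and the cell cycle, while genes of adhesion and growth arrest are often lower when Myc is high. The circadian clock is a loop of transcription factors. ARNTL (also called BMAL1) and CLOCK bind E-boxes and drive the Per, Cry and Nr1d genes. PER and CRY proteins inhibit ARNTL and CLOCK, and the NR1D receptors bind ROR elements (RORE) and repress Arntl and Nfil3. Cell-cycle genes are timed through E2F sites in genes of DNA replication and through cell-cycle homology regions (CHR) in genes of mitosis.

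Promoter sequences of 5 genes are printed because clock genes with large falls and the gene groups whose introns and exons parted include them; those of Per1, Top2a and Mcm5 were chosen after their values were seen. They are RefSeq sequences of build GRCm38.p6, 250 bases before to 50 bases after an annotated start, read 5′ to 3′ on the gene's strand, and each was found by exact match at 1 place in mm9. Capitals mark the long RORE TAGGTCA in Arntl and, as its reverse complement, in Nfil3, the E-box CACGTG in Per1, the CHR TTTGAA in Top2a, once as its reverse complement, and the E2F site TTTNGCGC in Mcm5, where a site on each strand overlaps the other. Arntl is shown at that of its 2 annotated starts whose window holds the RORE (chr7:120350775-120351074, plus strand) and Nfil3 at chr13:53076359-53076658 (minus strand). Per1 is shown at that of its 2 annotated starts whose window holds the E-box, chr11:68912201-68912500 (plus strand), Top2a at chr11:98885454-98885753 (minus strand) and Mcm5 at chr8:77633158-77633457 (plus strand), all in mm9.
Arntl: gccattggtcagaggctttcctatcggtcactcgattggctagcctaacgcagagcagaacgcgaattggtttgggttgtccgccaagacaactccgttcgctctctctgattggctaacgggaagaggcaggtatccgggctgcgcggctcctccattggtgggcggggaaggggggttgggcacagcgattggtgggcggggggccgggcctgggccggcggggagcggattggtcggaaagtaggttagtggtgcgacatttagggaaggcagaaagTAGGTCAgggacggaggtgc
Nfil3: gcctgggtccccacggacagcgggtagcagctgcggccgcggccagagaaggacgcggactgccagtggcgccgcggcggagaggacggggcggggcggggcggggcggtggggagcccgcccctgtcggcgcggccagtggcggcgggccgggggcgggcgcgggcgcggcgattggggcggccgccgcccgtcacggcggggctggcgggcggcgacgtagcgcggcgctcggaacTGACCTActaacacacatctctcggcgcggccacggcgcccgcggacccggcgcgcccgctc
Per1: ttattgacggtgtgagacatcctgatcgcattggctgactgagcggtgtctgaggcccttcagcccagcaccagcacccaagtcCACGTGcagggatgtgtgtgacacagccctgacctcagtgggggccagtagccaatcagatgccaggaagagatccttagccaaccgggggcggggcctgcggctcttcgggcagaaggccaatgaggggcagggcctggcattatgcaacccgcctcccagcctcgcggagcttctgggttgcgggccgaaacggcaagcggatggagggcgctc
Top2a: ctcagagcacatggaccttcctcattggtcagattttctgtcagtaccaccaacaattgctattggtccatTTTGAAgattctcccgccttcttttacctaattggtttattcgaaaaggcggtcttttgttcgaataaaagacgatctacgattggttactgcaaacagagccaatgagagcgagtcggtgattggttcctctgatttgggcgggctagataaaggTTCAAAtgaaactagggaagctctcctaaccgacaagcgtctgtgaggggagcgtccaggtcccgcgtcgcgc
Mcm5: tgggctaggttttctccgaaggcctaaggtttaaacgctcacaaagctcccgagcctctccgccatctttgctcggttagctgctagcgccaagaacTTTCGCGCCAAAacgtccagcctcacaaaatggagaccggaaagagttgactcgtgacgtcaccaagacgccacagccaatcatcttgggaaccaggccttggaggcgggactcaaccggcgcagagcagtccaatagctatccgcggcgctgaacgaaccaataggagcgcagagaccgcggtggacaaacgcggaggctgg
Both strands were searched for each motif over the 26742 genes with a promoter in the table. The long RORE was present in promoters of 2 of 17 measured clock genes with an entry (11.8%), Arntl and Nfil3, against 2.98% of all genes. The CHR was present in 21 of 29 mitosis genes (72.4%), against 20.1% of all genes. The E2F site was present in 11 of 39 genes of the G1/S transition and DNA replication (28.2%), against 1.58% of all genes. The E-box was present in 5 of the 17 clock genes (29.4%), against 8.11% of all genes. Each printed window holds a marked motif. The windows of Ankrd6, Stab1 and Nr1d1, which are not printed, held 0 E-boxes and 0 long ROREs. These counts describe letters in the windows only.

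At 4 h, 552 genes were higher and 831 were lower in labelled exons than at 1 h (adjusted p under 0.05, limma), which is 4.81% and 7.23% of the 11488 genes tested (12% in either direction). In labelled introns, which are part of RNA not yet spliced, 871 genes were higher and 1268 lower, 7.57% and 11% of the 11506 tested (18.6% in either direction). In such samples fewer cells of a type and less RNA per cell cannot be told apart. Changes were modest: the median size of a called change was 0.36 in exons and 0.34 in introns on the log2 scale, and in exons 20 genes rose and 19 fell by more than 1. Over all genes tested the median change was -0.0005 in exons, 0.0032 in introns and 0.0003 in the intron to exon ratio. The split between rises and falls depended on the scaling. Rises made up 39.9% of the called genes in exons after scaling by trimmed means, 59.3% (859 higher and 590 lower) when libraries were scaled by their sums and 27.2% (309 and 825) with no further scaling. In introns they made up 40.7%, 71.5% (1752 and 698) and 65.5% (1244 and 655) of the called genes under these scalings. With the sums, the median of all genes moved by 0.05 in exons and 0.09 in introns. Leaving out 4 h replicate 2 gave 271 higher and 438 lower exon calls, leaving out 4 h replicate 3 gave 323 and 584, leaving out 1 h replicate 2 gave 269 and 494, and leaving out 1 h replicate 3 gave 259 and 393. In introns, 505 genes were called higher without 4 h replicate 2, 569 without 4 h replicate 3 and 553 without 1 h replicate 2, and 845 were called lower without 1 h replicate 3.

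Levels are given as the deposited values after scaling (scaled units), which are comparable between libraries of one table for a given gene but not between genes or between exons and introns. Deposited sums per library were 12385630 to 13244484 at 4 h and 13254591 to 13941616 at 1 h in labelled exons, and 33872049 to 35625993 at 4 h and 34044226 to 36082328 at 1 h in labelled introns. Introns held 71.9 to 74.2% of the labelled sum at 4 h and 70.9 to 73.1% at 1 h. Markers of the fibroblast were present, with 12 of 15 measured and summed levels of 928 to 1150 RPKM at 4 h and 1220 to 1230 RPKM at 1 h. Of the markers of other cell types, 4 of 11 for macrophages, 2 of 9 for endothelium, 1 of 9 for muscle, 3 of 9 for adipocytes and 5 of 9 for neural cells were measured. Summed neural markers were 34.5 to 37.6 RPKM at 4 h and 35.5 to 39.1 RPKM at 1 h. Nes made up most of this sum, and Tubb3 within it was higher at 4 h (exon log2 change 0.72, adjusted p = 0.0331). Pecam1, an endothelial marker, was higher in introns (0.88, adjusted p = 0.00502) with exons at 0.78 (adjusted p = 0.403). The part of these cell types in the results was not tested. Further, summed adipocyte markers, which include Dgat2, were 4.65 to 5.26 RPKM at 4 h and 3.78 to 4.34 RPKM at 1 h. Within this sum, mean Dgat2, a gene named below for its rise, was 2.86 RPKM at 4 h and 1.66 at 1 h. Plin4 was at 1.17 and 1.00, and Fabp4 went the other way, at 0.90 and 1.39. Endothelial and muscle sums stayed between 0.281 and 0.706 RPKM at both times. Of the 11 epithelial markers, 0 were among the genes tested in labelled exons. The drop in summed fibroblast markers stands beside the falls of matrix and adhesion genes below, and its part in them was not tested. The sum includes the matrix genes Col1a1, Col1a2, Col3a1 and Fn1, so it is not a separate measure of cell content. Of the 12 markers, 2 were lower and 0 higher in exons (all genes 7.23% and 4.81%). The 3 libraries of a time differed from each other by an SD of log2 differences of 0.308 to 0.336 in exons, and libraries of different times by 0.317 to 0.422.

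Among genes with a mean of at least 100 scaled units at the higher time and times that do not overlap, Ankrd6, Stab1, Smoc1 and Pcsk6 had the largest rises in labelled exons. Ankrd6, an ankyrin-repeat protein of Wnt signalling on chr4:32891010-33037816 (mm9), had 321, 318 and 270 scaled units at 4 h, against 127, 110 and 94.9 at 1 h. Stab1, a scavenger receptor on chr14:31952199-31981827, had 276, 305 and 206 at 4 h and 110, 102 and 101 at 1 h. The 4 h libraries stood above every 1 h library for both genes, and summed macrophage markers, the cells Stab1 is best known from, were at 4.05 to 4.91 RPKM at 4 h and 2.72 to 4.73 RPKM at 1 h; their part in the Stab1 value was not tested. The log2 change was 1.45 ± 0.16 (SE, limma adjusted p = 1.05e-07) for Ankrd6 and 1.31 ± 0.17 (adjusted p = 4.59e-06) for Stab1. Smoc1, a secreted calcium-binding protein of the matrix on chr12:82127795-82287401, averaged 845 ± 73.7 scaled units at 4 h and 411 ± 87.9 at 1 h (SD, n = 3 each; log2 change 1.06 ± 0.14, adjusted p = 3.66e-06 by limma). Pcsk6, a proprotein convertase on chr7:73007057-73195220, had 614, 601 and 552 at 4 h, against 264, 305 and 306 at 1 h (1.01 ± 0.13, adjusted p = 2.1e-06). Each of these 4 genes was also higher at 1.5 h than at 0 min, in other libraries. Labelled exons there changed by 1.84 for Ankrd6, 1.35 for Stab1, 1.05 for Smoc1 and 1.17 for Pcsk6 on the log2 scale. As 1.5 h lies between 1 h and 4 h, part of these changes may fall after 1 h. The next 6 by size changed by 0.93 to 0.81: Smpdl3b (a phosphodiesterase of the sphingomyelinase family, 0.93), Pomgnt2 (a glycosyltransferase acting on dystroglycan, 0.89), Txnip (the thioredoxin-interacting protein, 0.83), Cers1 (a ceramide synthase, 0.82), Dgat2 (which makes triglycerides, 0.82) and Nbeal2 (a BEACH-domain protein, 0.81). Txnip was the one of these 10 whose call ended when a single library was left out (0.70 without 4 h replicate 2).

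**Figure D1:**
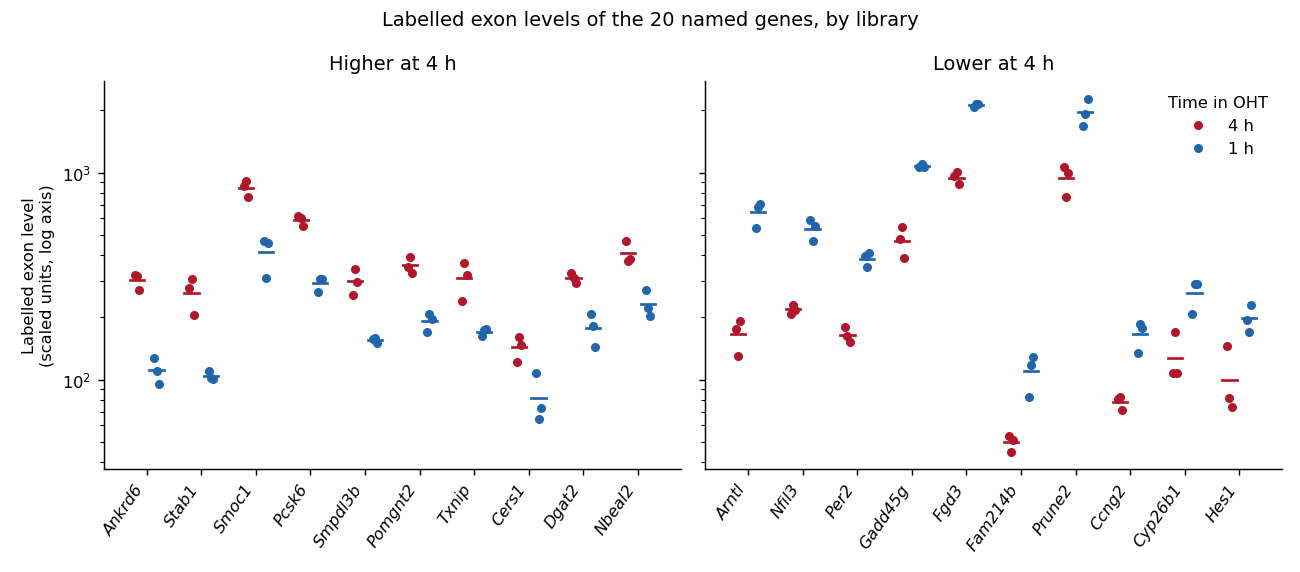
Labelled exon levels (scaled units, log axis) of the 10 genes with the largest named rises and the 10 with the largest named falls. Points are the 3 libraries at 4 h (red, left) and the 3 at 1 h (blue, right), and bars are means; the times do not overlap for any of the 20 genes, which was a condition for naming them.

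The exons of Smoc1 went on rising after 1 h, while a rise of its introns did not pass the test. Smoc1 introns had 12981, 12085 and 12348 scaled units at 4 h, against 11368, 9338 and 12731 at 1 h, and the times overlapped (log2 change 0.17 ± 0.11, adjusted p = 0.291, limma). Over the course, mean Smoc1 introns were 2569 at 0 min, 6153 at 30 min, 11146 at 1 h, 12471 at 4 h and 12131 at 16 h, whereas labelled exons were 264, 268, 411, 845 and 1317 at those times. The intron to exon ratio of Smoc1, computed within each library, fell by 0.87 on the log2 scale (SE 0.11, adjusted p = 3.88e-05). Ankrd6 introns rose further (0.61 ± 0.10, adjusted p = 3.53e-05), and so did those of Pcsk6 (0.37 ± 0.06, adjusted p = 9.48e-05), each by less than its exons. Their ratios changed by -0.82 (Ankrd6, adjusted p = 0.00742; no longer called without 1 h replicate 3, -0.60) and -0.63 (Pcsk6, adjusted p = 0.00316). These 3 genes span 147 kb (Ankrd6), 160 kb (Smoc1) and 188 kb (Pcsk6), against a median of 25.5 kb over all genes tested in introns with a length. Reep6 (-0.96), Aif1l (-0.93) and Camk4 (-0.88), whose ratios fell further, span 6.49, 23.2 and 257 kb. Genes whose ratio was called lower had a median span of 43.7 kb, against 25.7 kb for all genes tested in the ratio. The share called lower was 1.02% under 10 kb, 1.96% at 10 to 30 kb and 3.58% at 30 to 100 kb. It was 4.88% at 100 to 300 kb and 3.75% over 300 kb. Bin medians of the ratio change ran from 0.03 to -0.02. Dgat2 (29.1 kb) had a ratio change of -0.63 (adjusted p = 0.0233), a call that ended without 4 h replicate 2 or 3 or 1 h replicate 2 or 3 (-0.66 to -0.54). Total RNA rose between the same times in separate libraries, with log2 changes of 2.62 for Ankrd6, 1.33 for Smoc1 and 1.09 for Pcsk6.

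**Figure D2:**
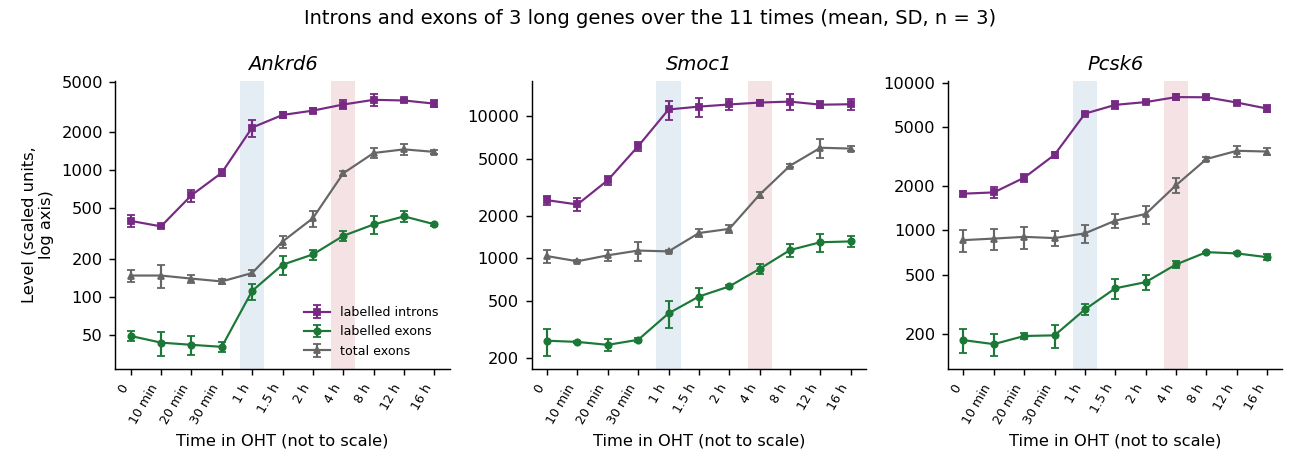
Labelled introns (purple), labelled exons (green) and total exons (grey) of Ankrd6, Smoc1 and Pcsk6 at the 11 times (scaled units, log axis; mean ± SD, n = 3; spacing of times not to scale), with 1 h shaded blue and 4 h red. Mean labelled exon and total exon levels of each gene were higher at 4 h than at 1 h, and Smoc1 introns differed least between these times.

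The intron to exon ratio changed in 596 of 10972 genes (5.43%), with 310 higher (2.83%) and 286 lower (2.61%). This test leaned on the whole time course for its spread. A fit of the 6 libraries alone called 0 genes in either direction by limma, with 1827 genes at an unadjusted p under 0.05 against 2182 in the fit of all 33 labelled libraries. Leaving out 4 h replicate 2 left 118 higher and 113 lower, 4 h replicate 3 left 142 and 136, 1 h replicate 2 left 179 and 157, and 1 h replicate 3 left 70 and 56. Besides Smoc1, the falls of the ratio named by size were in Reep6 (an endoplasmic reticulum-shaping protein, -0.96), Aif1l (an actin-binding protein, -0.93) and Camk4 (a calmodulin-dependent kinase, -0.88). Reep6 exons had 256, 229 and 246 at 4 h and 145, 134 and 146 at 1 h, while its introns had 112, 142 and 154 at 4 h and 153, 130 and 185 at 1 h. The calls of Reep6 and Aif1l ended without 1 h replicate 3 (-0.85 and -0.71), that of Reep6 also without 4 h replicate 1 (-0.79) and that of Aif1l without 4 h replicate 2 (-0.88). The rises named by size were in Nusap1 (a spindle microtubule-binding protein, 0.85), Tax1bp3 (a PDZ-domain protein, 0.82), Map2 (a microtubule-associated protein, 0.78) and Adprh (an ADP-ribosylarginine hydrolase, 0.76). Adprh lost its call without any 1 of 4 h replicates 2 and 3 and 1 h replicates 2 and 3 (0.69 to 0.79).

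The 3 largest named falls in labelled exons were clock genes. Arntl, on chr7:120350979-120457636 (mm9), had 175, 130 and 192 scaled units in labelled exons at 4 h, against 540, 683 and 707 at 1 h, and 1523, 1393 and 1393 in introns, against 4773, 5359 and 6061. No 4 h library came near a 1 h library, and the log2 change was -1.96 ± 0.17 in exons (SE, limma adjusted p = 1.27e-09) and -1.90 ± 0.14 in introns (adjusted p = 5.82e-11). Nfil3, a repressor that binds D-boxes, on chr13:53062578-53076442, had 208, 230 and 216 at 4 h and 587, 466 and 550 at 1 h in exons (-1.28 ± 0.11, adjusted p = 8.4e-10). Per2, on chr1:93312561-93355907, had 180, 162 and 152 at 4 h and 395, 349 and 409 at 1 h (-1.22 ± 0.18, adjusted p = 2.05e-05). Their mean levels at 1 h were near or above those at 0 min. Mean Arntl introns were 5796 at 0 min, 6346 at 30 min, 5398 at 1 h, 3355 at 1.5 h, 2097 at 2 h and 1436 at 4 h, and Nfil3 introns were 1369, 2160, 1526, 997, 740 and 773 at the same times. Nr1d1, whose protein REV-ERBα represses through the RORE, had its high levels earlier. Whether it had a part in the falls of Arntl and Nfil3 was not tested. Nr1d1 introns were 174 at 0 min, 1229 at 30 min and 1093 at 1 h. At 4 h Nr1d1 was below its 1 h level, with 1380, 1182 and 1240 against 2179, 1846 and 2003 in exons (-0.66 ± 0.11, adjusted p = 0.00016), and still above the 349, 285 and 263 of the 0 min libraries.

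In exons 0 of 21 measured clock genes were higher and 7 were lower, with a list median of -0.27 (all genes 4.81% and 7.23%). In introns 0 were higher and 15 were lower, with a median of -0.53 (all genes 7.57% and 11%). Scaling by sums or no further scaling left 10 lower in introns, and the exon count was 7 or 8 under every alternative. Each gene's log2 level was also set against its own mean over the 33 libraries and the list median taken. For introns this was -0.22 at 0 min, 0.37 at 30 min, 0.30 at 1 h and -0.15 at 4 h. For exons it was -0.19, 0.13, 0.23 and -0.05, so neither median at 4 h was below that at 0 min. At 1.5 h against 0 min, 10 of 21 were higher and 2 lower in exons (all genes 14.8% and 11.2%). In total RNA at 4 h against 1 h, 3 were higher and 8 lower (14.8% and 15.0%). Per1 exons had 266, 269 and 293 at 4 h and 482, 446 and 502 at 1 h (-0.79 ± 0.11, adjusted p = 1.91e-05). Its introns, at low levels of 112 to 155 at 4 h and 169 to 236 at 1 h, changed by -0.53, a call that ended without 4 h replicate 1 (-0.39) or 1 h replicate 3 (-0.41). Among genes chosen after their values were seen, Cry1 divided between the readouts: introns had 2206, 1863 and 1912 at 4 h against 3780, 3549 and 3443 at 1 h (-0.85 ± 0.10, adjusted p = 5.6e-07), while exons changed by -0.30 ± 0.13 (adjusted p = 0.124), and its ratio by -0.54 (adjusted p = 0.00107). Bhlhe40, another E-box repressor, changed by -0.79 in exons and -0.81 in introns, and Clock by -0.32 and -0.35, all called. The 8 h and 2 h libraries, none of which enters the comparison of 4 h with 1 h although all were fitted together, gave 10 lower and 1 higher of 21 circadian clock genes in exons, where 9.76% and 6.15% of all genes tested were lower and higher (15.9% in either direction), with Arntl at -1.27. Without 2 h replicate 3 this was 6 lower and 0 higher.

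**Figure D3:**
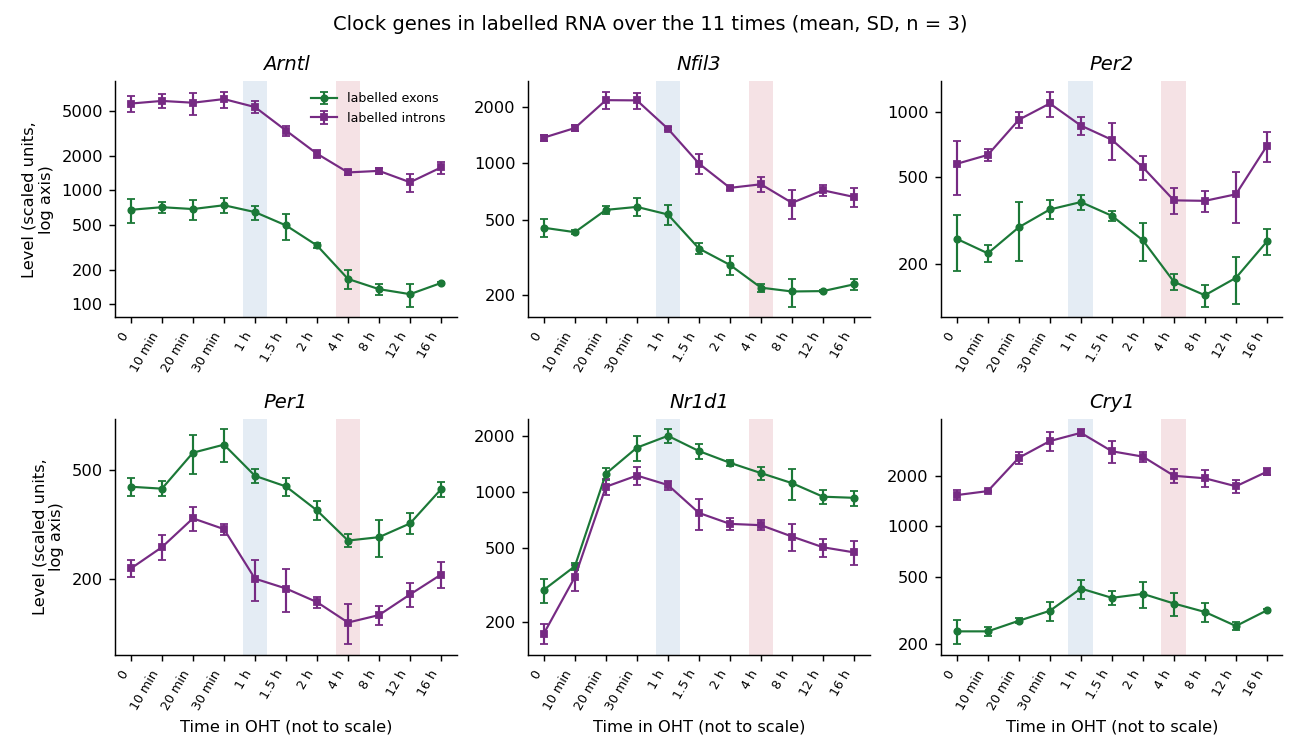
Labelled exon (green) and intron (purple) levels of 6 clock genes at the 11 times (scaled units, log axis; mean ± SD, n = 3; spacing of times not to scale), with 1 h shaded blue and 4 h red. Mean exon levels of Arntl, Nfil3, Per2 and Per1 were lower at 4 h than at each earlier time, and the mean exon level of Nr1d1 was highest at 1 h.

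Fgd3, a member of a family of Cdc42 exchange factors on chr13:49356923-49415680, had 958, 1003 and 876 at 4 h and 2071, 2135 and 2144 at 1 h in exons (-1.16 ± 0.10, adjusted p = 8.4e-10). Its introns fell by 1.43 on the log2 scale (adjusted p = 1.96e-11). Gadd45g, a stress gene of growth arrest, had 476, 544 and 388 at 4 h and 1067, 1100 and 1068 at 1 h (-1.21 ± 0.17, adjusted p = 1.28e-05). The remaining named falls were Fam214b (-1.10), Prune2 (-1.06), Ccng2 (an unconventional cyclin tied to arrest, -1.06), Cyp26b1 (which degrades retinoic acid, -1.05) and Hes1 (a Notch-responsive repressor, -1.03). Hes1 was no longer called without 4 h replicate 3 (-0.84) or 1 h replicate 3 (-0.92). Ccng2 and Prune2 were also lower at 1.5 h than at 0 min, with log2 changes of -1.57 and -0.55, while Fgd3 was not called there (-0.09). Of the CDK inhibitor and growth arrest list, 4 of 19 genes were lower and 0 higher in exons, with a median of -0.14 (all genes 7.23% and 4.81%). The count was 2 with scaling by sums and 2 without 4 h replicate 1 or 2 or 1 h replicate 2 or 3. Cdkn1a, the p21 gene, stood at 12.9, 8.15 and 7.05 at 4 h and 23.8, 13 and 17.4 at 1 h and did not pass the test (adjusted p = 0.131, limma).

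Mxd4 and Mnt, antagonists of Myc within its own network, were lower at 4 h. Mxd4, which pairs with Max in place of Myc, had 116, 107 and 158 at 4 h and 172, 244 and 227 at 1 h in exons (-0.75 ± 0.16, adjusted p = 0.00223), and its introns changed by -1.10 ± 0.13 (adjusted p = 7.95e-07). Mnt, with the same role, had 596, 581 and 652 at 4 h and 903, 807 and 874 at 1 h (-0.50 ± 0.10, adjusted p = 0.00116). Myc itself had 3326, 2924 and 2706 at 4 h against 3023, 2629 and 2719 at 1 h, with overlapping times (0.09 ± 0.16, adjusted p = 0.76). Whether the deposited Myc value includes reads of the MycER construct is not given in the sources used here. Across the network list 0 of 10 genes were higher and 2 lower in exons (median -0.05), against 4.81% and 7.23% of all genes. In introns 0 were higher and 5 lower (median -0.23), against 7.57% and 11%. The intron count was 3 with scaling by sums, with no further scaling or without 1 h replicate 1, and 2 without 4 h replicate 3.

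Mitosis genes were higher in introns and, in part, lower in exons. Of 36 measured mitosis genes, 20 were higher and 0 lower in introns at 4 h (median 0.24), against 7.57% and 11% of all genes. In exons 0 were higher and 7 lower (median -0.07), against 4.81% and 7.23%. The intron to exon ratio tests the difference within each library. It was higher in 18 and lower in 0 of the 36 (median 0.25), against 2.83% and 2.61% of all genes. In total RNA of separate libraries 0 were higher and 23 lower (median -0.19), where 14.8% and 15.0% of all 11486 genes tested were higher and lower (29.8% in either direction). Top2a, topoisomerase II alpha, on chr11:98854257-98885503, shows the pattern: introns had 8303, 8728 and 8151 at 4 h, against 6773, 6303 and 6167 at 1 h, and exons 8451, 8094 and 8112 at 4 h, against 8436, 8870 and 9214 at 1 h. Its introns rose (0.39 ± 0.05, adjusted p = 5.61e-06), its exons did not pass the test (-0.10 ± 0.06, adjusted p = 0.246) and its ratio rose by 0.50 (adjusted p = 6.56e-05). The kinesin gene Cenpe had introns at 5372, 4891 and 4893 at 4 h and 3838, 4443 and 3595 at 1 h (0.36 ± 0.07, adjusted p = 0.000385), with exons at -0.18 (adjusted p = 0.138). For the proliferation marker Mki67, introns were higher (0.30 ± 0.07, adjusted p = 0.0019) and exons lower (-0.29 ± 0.09, adjusted p = 0.0277). Top2a, Cenpe and Mki67 were chosen after their values were seen; by the rule over smallest exon p the list gave Kif4 (-0.30), Anln (-0.23) and Mad2l1 (-0.28), all lower in exons, with introns at 0.13, -0.02 and 0.15 that did not pass the test. The exon calls of Anln and Mad2l1 ended without 1 h replicate 2 (-0.21 and -0.25) or 3 (-0.19 and -0.24), that of Anln also without 4 h replicate 2 (-0.17) and that of Mad2l1 without 4 h replicate 1 (-0.24).

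The mitosis count of higher introns ranged from 13 to 19 when a library was left out (13 without 4 h replicate 2) and was 29 with scaling by sums. That of lower exons ranged from 2 to 6, with 3 left without 4 h replicate 2, 4 h replicate 3 or 1 h replicate 2 and 2 left without 1 h replicate 3, and scaling by sums gave 2 higher and 5 lower and the 6 libraries alone 4 lower. The ratio count was 7 without 4 h replicate 2, 12 without 4 h replicate 3 and 5 without 1 h replicate 3, with 0 lower in each, and 0 in the fit of the 6 libraries alone, where no gene was called. The exon call of Mki67 ended without 4 h replicates 2 or 3 or 1 h replicate 3 (-0.27, -0.29 and -0.21).

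Over the whole course, mitosis introns were lowest at 30 min and 1 h. Each gene's log2 level was set against its own mean over the 33 libraries and the median of the 36 genes taken. For introns this was 0.20 at 0 min, 0.17 at 10 min, -0.11 at 20 min, -0.25 at 30 min, -0.25 at 1 h, -0.11 at 1.5 h, -0.10 at 2 h, -0.05 at 4 h, 0.08 at 8 h, 0.26 at 12 h and 0.23 at 16 h. The 3 libraries gave -0.06, 0.01 and -0.10 at 4 h and -0.24, -0.21 and -0.28 at 1 h, without overlap. For labelled exons the medians were 0.16 at 0 min, -0.09 at 1 h, -0.15 at 4 h, -0.02 at 8 h and 0.12 at 12 h, and for total exons 0.10, 0.05, -0.16, -0.09 and 0.00. By library, labelled exons gave -0.10, -0.20 and -0.15 at 4 h and -0.13, -0.10 and -0.03 at 1 h, and these times overlapped.

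Of 50 genes of the G1/S transition and DNA replication, 20 were higher and 1 lower in introns (median 0.20, all genes 7.57% and 11%). In exons 7 were higher and 1 lower (median 0.02), against 4.81% and 7.23%. The exon count of higher genes was 4 without 4 h replicate 3 or 1 h replicate 2 and with no further scaling. Mcm10, a replication initiation factor on chr2:4910760-4933837, rose in both: exons had 1486, 1505 and 1509 at 4 h and 1116, 1120 and 1224 at 1 h (0.38 ± 0.07, adjusted p = 0.000811), and introns 1558, 1690 and 1719 at 4 h and 1217, 1093 and 1107 at 1 h (0.54 ± 0.07, adjusted p = 8.83e-07). Cdt1 (0.34) and Cdc6 (0.29), which load the replicative helicase, rose in exons too, Cdc6 not without 1 h replicate 3 (0.21). Mcm5, a subunit of that helicase, had introns at 3187, 3503 and 3475 at 4 h and 2741, 2666 and 2419 at 1 h (0.38 ± 0.06, adjusted p = 9.41e-05), whereas its exons did not pass the test (0.07, adjusted p = 0.472). The ratio was higher in 13 of the 50 genes and lower in 1 (median 0.14), against 2.83% and 2.61% of all genes. It was higher in 6 without 4 h replicate 2, 8 without 4 h replicate 3 and 3 without 1 h replicate 3. It was 0 in the 6 libraries alone. In total RNA 7 of the 50 were higher, a share close to the 14.8% of all genes, and 14 lower, against 15.0% of all genes (median -0.07), and the higher count was 4 without 1 h replicate 1 or 2.

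**Figure D4:**
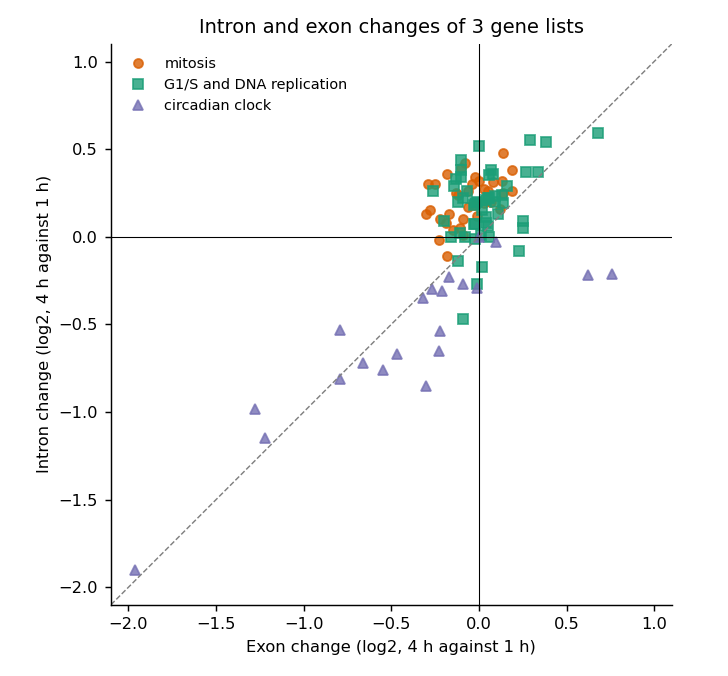
Log2 change of introns (vertical) against that of exons (horizontal), 4 h against 1 h in labelled RNA, for each measured gene of the mitosis (36, circles), G1/S and DNA replication (50, squares) and circadian clock (21, triangles) lists. The dashed line marks equal change; most mitosis genes lie above it with introns above 0, and most clock genes below 0 on both axes.

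Of 43 ribosome biogenesis genes 7 were higher and 0 lower in labelled exons (median 0.12), against 4.81% and 7.23% of all genes. In introns 0 were higher and 1 lower (median 0.07), against 7.57% and 11%. The intron counts were 7 higher and 1 lower with scaling by sums and 3 and 1 without 1 h replicate 1. Rrp9, a U3 small nucleolar RNA-binding protein, led the exon rises. It had 2560, 2759 and 2675 at 4 h and 2079, 1864 and 1763 at 1 h (0.49 ± 0.08, limma adjusted p = 0.000209). Ebna1bp2, of large-subunit assembly, changed by 0.27 (adjusted p = 0.00906), a call lost without 1 h replicate 3 (0.25). Ncl, which encodes nucleolin, was at 0.15 (adjusted p = 0.311). The exon count of this list was 16 with scaling by sums and 1 with no further scaling (where Ebna1bp2 was at 0.24). It was 3 without 4 h replicate 1 or 2, 4 without 4 h replicate 3 and 2 without 1 h replicate 2 or 3. In the 6 libraries alone it was 3. In other libraries 22 of the 43 ribosome biogenesis genes were higher in total RNA at 4 h against 1 h (14.8% of all genes) and 20 in labelled exons at 8 h against 2 h (6.15% of all genes), with 0 lower in both. The total count was 7 with no further scaling, 12 without 4 h replicate 1 and 14 without 1 h replicate 2, and the count at 8 h against 2 h was 13 without 8 h replicate 3 and 7 without 2 h replicate 3. Subunits and factors of RNA polymerases I and III had 6 higher and 0 lower of 35 in exons (median 0.10, all genes 4.81% and 7.23%). The called count was 0 with no further scaling and 11 with scaling by sums. Leaving out 1 h replicate 2 or 3 left 1, 4 h replicate 2 left 2, and 4 h replicate 1 or 3 left 3.

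Of 34 genes of actomyosin and SRF targets, 0 were higher and 13 lower in exons (median -0.21, all genes 4.81% and 7.23%). The lower genes included Tgfb1i1 (the focal adhesion protein Hic-5), Fblim1 (migfilin) and Vcl (vinculin). Tgfb1i1 had 466, 449 and 367 at 4 h and 816, 901 and 853 at 1 h (-1.01 ± 0.17, adjusted p = 0.000212). In introns 4 of the 34 were lower, a share close to that of all genes (11%), and 0 higher (median -0.13), with 7 lower in the fit with the replicate block and in the 6 libraries alone, 2 without 1 h replicate 2 or with scaling by sums and 1 with no further scaling, and the exon count was 8 without 4 h replicate 3 and 7 without 1 h replicate 3. Of 28 genes of the TGF-beta and YAP pathway, 9 were lower and 0 higher in exons (median -0.20, all genes 7.23% and 4.81%). In introns 13 were lower and 0 higher (median -0.22), against 11% and 7.57%. Without 1 h replicate 3 these were 5 in exons and 5 in introns, and introns gave 7 without 4 h replicate 3 or with scaling by sums, 8 without 1 h replicate 2 and 6 with no further scaling. Smad3, the TGF-beta effector on chr9:63494574-63605801, had 1052, 1014 and 1026 at 4 h and 1341, 1374 and 1427 at 1 h (-0.42 ± 0.06, adjusted p = 1.91e-05). Wwtr1, which encodes the YAP partner TAZ, changed by -0.47 and Amotl1, an angiomotin, by -0.39, both called. At 8 h against 2 h, 20 of 34 and 16 of 28 genes of these lists were lower and 0 higher (all genes 9.76% and 6.15%).

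**Figure D5:**
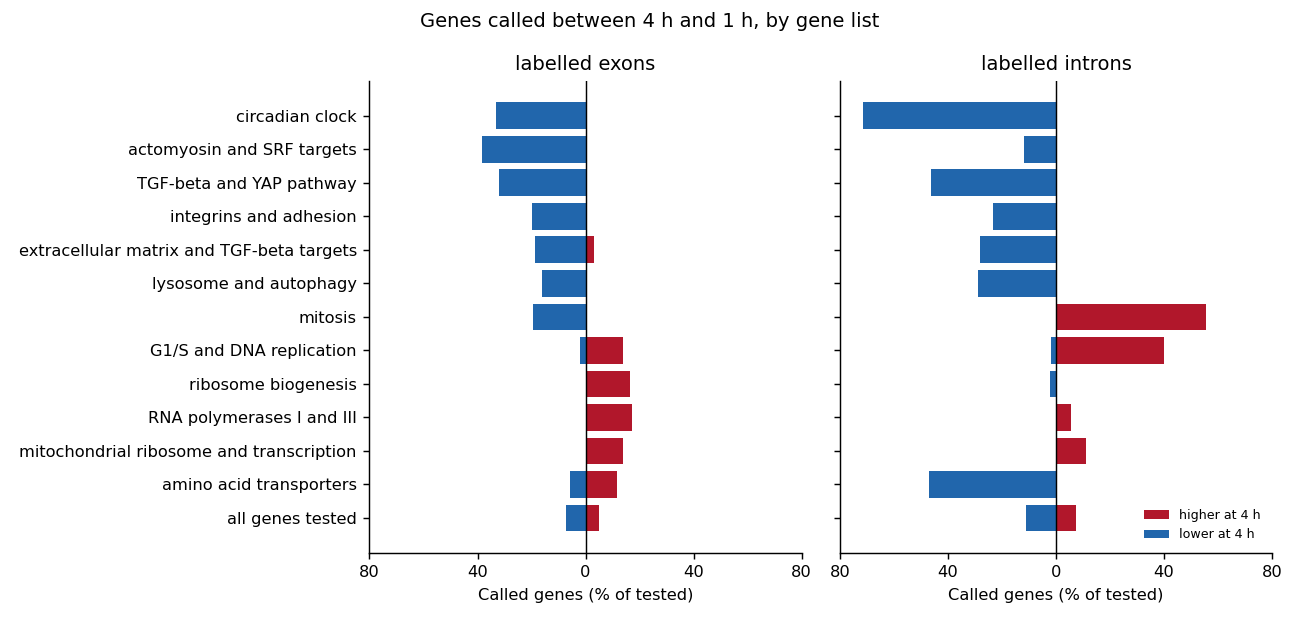
Share of tested genes of 12 lists and of all genes that were called higher (red, right) or lower (blue, left) at 4 h than at 1 h, in labelled exons and labelled introns (percent; adjusted p under 0.05). Mitosis genes pointed to lower exons and higher introns; clock genes were lower in both.

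Of 17 amino acid transporters 8 were lower in introns and 0 higher (median -0.18), against 11% and 7.57% of all genes. In exons 1 was lower and 2 were higher (median -0.02), against 7.23% and 4.81%. In total RNA 1 was lower and 8 were higher, against 15.0% and 14.8%. The intron count was 5 with scaling by sums or no further scaling. The 2 exon rises became 4 with scaling by sums or the replicate block, 0 with no further scaling and without 4 h replicate 2 or 1 h replicate 2 or 3, and 1 without 4 h replicate 3. Immediate early factors had 4 of 24 lower and 0 higher in exons (median -0.20), against 7.23% and 4.81% of all genes. This exon count was 2 without 4 h replicate 3 or 1 h replicate 3. Arc, a cytoskeletal immediate early gene, had 452, 546 and 401 at 4 h and 864, 773 and 709 at 1 h (-0.75 ± 0.13, limma adjusted p = 0.000289).

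Immp2l, a subunit of a mitochondrial inner membrane peptidase spanning 1310 kb on chr12:41750677-43056575, had 8283, 8513 and 8823 at 4 h and 4192, 4316 and 5059 at 1 h in introns (0.92 ± 0.08, adjusted p = 2.62e-09). Its exons were low and overlapped, with 36.7, 44.8 and 64.4 at 4 h and 47.6, 43.9 and 33.9 at 1 h. Rgcc, named for its role in cell-cycle regulation, rose in introns (1.15) and exons (2.01), with exon levels of 62.5, 64.2 and 102 at 4 h and 16.9, 17 and 19.4 at 1 h. Samd12 (1.06) and Cped1 (0.99) also rose in introns. Pcsk2 (1.33) and Rnf32 (0.94) did so with spread libraries: Pcsk2 lost its call when any 1 of 4 libraries was left out and was at 0.09 on log2(RPKM + 0.1), and Rnf32 lost it without 4 h replicate 2 or 1 h replicate 3 (0.80 and 0.68). On that RPKM scale, where they remained called, Immp2l was at 0.46, Rnf32 at 0.38, Cped1 at 0.27 and Samd12 at 0.21. The added 0.1 shrinks changes of genes whose RPKM are near or below it, so these smaller values need not mean smaller changes. Among intron falls, Plat (tissue plasminogen activator) changed by -1.46 (-0.94 on the RPKM scale), Tinagl1 (a matricellular protein) by -1.19, Etv1 (an ETS factor) by -1.17 (-0.48 on the RPKM scale) and Chst1 (a sulfotransferase) by -1.07. Whether reads were counted by strand is not given in the sources used here, so reads of genes lying within these introns cannot be told apart.

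The median span in mm9 of genes lower in introns was 51.0 kb (1184 of 1268 with a length), against 30.1 kb for those higher and 25.5 kb for all tested. The share called lower was 3.29% under 10 kb, 7.70% at 10 to 30 kb, 16.6% at 30 to 100 kb, 21.9% at 100 to 300 kb and 15.6% over 300 kb. The median log2 change ran from 0.06 to -0.08 over these bins. The share called higher was 4.46%, 7.93%, 7.95%, 9.64% and 7.63% in the same bins. Each 4 h library set against the 1 h mean gave a higher median under 10 kb (0.07, 0.07 and 0.05) than over 300 kb (-0.09, -0.10 and -0.04). The 4 h mean set against each 1 h library gave 0.02, 0.06 and 0.07 under 10 kb and 0.00, -0.09 and -0.13 over 300 kb, so that little difference with length remained against 1 h replicate 1. In labelled exons the share called lower was 5.27%, 6.01%, 8.89%, 11.3% and 10.7% over these bins, and in total exons it was 14.9%, 15.0%, 16.5%, 16.6% and 9.54%.

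The called genes were set beside 3 comparisons that share no library with this one, the labelled ones being fitted together with it. Total RNA has the same times and replicate numbers as the labelled RNA. The labels do not say whether both came from the same cultures, so the total RNA may not be independent of the labelled RNA. In total RNA at 4 h against 1 h, 14.8% of all genes were higher and 15.0% lower. Of the 552 genes higher in labelled exons, 400 were higher there (72.5% of the 552 and 23.5% of 1702) and 2 were lower. Of the 831 lower genes, 551 were lower there (66.3% and 31.9% of 1726) and 0 higher. At 8 h against 2 h, where 6.15% of genes were higher and 9.76% lower, 198 of the 552 were higher (35.9% and 28% of 707) and 2 lower, and 445 of the 831 were lower (53.5% and 39.7% of 1121) and 0 higher. At 1.5 h against 0 min, 14.8% of all genes were higher and 11.2% lower (26.0% in either direction). There 255 of the 552 were higher (46.2% and 15.0% of 1701) and 47 lower, and 249 of the 831 were lower (30% and 19.4% of 1283) and 51 higher. As 1.5 h lies between 1 h and 4 h, these counts do not show that a change came before 1 h. Nr1d1, Mnt and Bhlhe40, lower at 4 h than at 1 h, were higher at 1.5 h than at 0 min (2.48, 0.72 and 1.09). Mcm10, Cdt1 and Cdc6, higher at 4 h than at 1 h, were lower at 1.5 h than at 0 min (-0.24, -0.29 and -0.25).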

How the data were processed

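Labelled and total RNA was sequenced from 3T9-MycER cells at 11 times of OHT, with 3 libraries for each kind of RNA and time. The deposited count tables of exons and introns hold whole numbers that had been rescaled and rounded, as their values show, so the authors' values were treated as a score and not as raw read counts. In the deposited RPKM tables the values were the same times a constant per gene, within 0.646%, over the 2662 genes in labelled exons, 4787 in labelled introns and 6089 in total exons where this was checked. Per the submitters' processing notes, which give no roles, the names are TopHat2 2.0.8, TopHat and mm9. The counter, annotation and strandedness remain not given in the sources used. Reads of overlapping or antisense genes cannot be told apart. Because depth was rescaled, no interval or floor that needs read counts is given, and the number of libraries sets the precision.

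Of 11513 genes, a gene was tested if 3 or more libraries reached 10. Libraries were scaled by trimmed means (30% of log ratios and 5% of levels trimmed), and log2(value + 1) was fitted with limma 3.58.1 in R 4.3.3 over all 33 labelled (or all 33 total) libraries, with Benjamini-Hochberg adjustment over all genes and a threshold of 0.05. Fold changes are on this scale, which understates changes of low genes. The ratio was log2(intron + 2) minus log2(exon + 2) for genes of at least 20 in both tables, centred on each library's median. Means are given with SD, and log2 changes with SE.

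The members and lists were chosen with earlier results of these data known. Genes are named by these rules: the 10 largest called rises and falls in exons, the next 6 each way in introns and 4 each way in the ratio, with a mean of at least 100 at the higher time, no overlap of times and a curated symbol; up to 3 genes a list by smallest exon p; and Myc, Nr1d1, Arntl, Ccng2, P2ry2, Ncl, Ccnd2 and Cdkn1a. Top2a, Cenpe, Mki67, Mcm5, Cry1, Clock, Bhlhe40 and, beyond its list, Per1 were chosen after their values were seen.

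Libraries with the same replicate number deviated together between 4 h and 1 h (r across genes of 0.12, 0.114 and 0.206 in exons and 0.162, 0.12 and 0.262 in introns). In introns 4 h replicate 2 and 1 h replicate 1 also did (0.125). At 1.5 h against 0 min the same numbers gave 0.325, -0.0122 and -0.348 in exons. The numbers were taken to pair the samples in the replicate block only, and the main fits held no term for them. Alternatives were other scalings, pseudocounts and filters, the RPKM tables, the replicate block, a fit of the 6 libraries alone and leaving out each library. Tested on simulated data, the fit of 4 h against 1 h recovered 86% of 1.5-fold and 100% of 2-fold changes in exons (11466 genes), 83% and 99% in introns (11484 genes) and 97% of 2-fold changes in the ratio (10848 genes). Changes were put only into genes above a minimum mean level, with the same scatter setting for every gene. The smallest change put in was 0.585 on the log2 scale (1 in the ratio). The median called change was smaller, at 0.36 in exons, 0.34 in introns and 0.4 in the ratio. Recovery of calls of that size was not simulated.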

Additional observations from a re-analysis of the deposited data

How the results depend on the processing

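The replicate block gave 679 higher and 1002 lower genes in exons, 976 and 1400 in introns and 349 and 321 in the ratio, and apart from the list counts given with it above changed 1 of 135 gene results, which gained its call. Scaling by library sums gave 859 higher exons, 1752 higher introns and 698 lower introns. No further scaling gave 309 higher exons and 655 lower introns. The 6 libraries alone gave 574 higher introns and 0 genes each way in the ratio (1827 at an unadjusted p under 0.05, limma). Leaving out 1 library gave 259 to 549 higher and 393 to 805 lower exons, 505 to 780 higher and 845 to 1134 lower introns, and 70 to 291 higher and 56 to 252 lower ratios. At 8 h against 2 h the higher count ranged from 413 to 604. At 1.5 h against 0 min no further scaling gave 992 higher and 2624 lower and the 6 libraries of that comparison 816 lower, and the lower count ranged from 831 to 1147 with 1 library left out. The cause of these shifts was not tested. The exon change of Immp2l, which was not called (0.19), ranged from -0.03 (without 4 h replicate 3) to 0.37 with 1 library left out. Among gene results, 28 of 135 lost their call without 1 h replicate 3, 21 without 4 h replicate 2 and 27 in the 6 libraries alone. Because the deposited values were rescaled, read depth could not set the limits of low genes, and with no spike-in described a change shared by all genes is not seen.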

Other observations

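Of 31 genes of lysosome and autophagy, 9 were lower and 0 higher in introns (median -0.07), against 11% and 7.57% of all genes. The lower intron count was 4 after scaling by sums and 5 with no further scaling. In exons 5 were lower and 0 higher, against 7.23% and 4.81%. The lower exon count was 3 after scaling by sums, 1 without 4 h replicate 2 and 2 without 1 h replicate 2. Of 36 genes of the mitochondrial ribosome and transcription, 5 were higher and 0 lower in exons (median 0.10, all genes 4.81% and 7.23%). This count was 9 after scaling by sums, 2 without 4 h replicate 2 or 1 h replicate 1, 3 without 1 h replicate 2 and 1 without 4 h replicate 3 or 1 h replicate 3. Of 32 genes of the extracellular matrix and TGF-beta targets, 9 were lower and 0 higher in introns (median -0.16, all genes 11% and 7.57%). In exons 6 were lower and 1 higher (median -0.17, all genes 7.23% and 4.81%). Summed fibroblast markers, which include matrix genes, were 928 to 1150 RPKM at 4 h and 1220 to 1230 RPKM at 1 h. Their part in these counts was not tested.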
